A study of Mus musculus with 4 samples.

Results

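Expression of the TACC family, of the microtubule polymerase ch-TOG and of the clathrin proteins that join TACC3 at the mitotic spindle was examined in mouse intestinal organoids, cultures of intestinal epithelium grown in a gel. The members were Tacc1, Tacc2, Tacc3, Ckap5 (which encodes ch-TOG), Clta, Cltb, Cltc, Pik3c2a and Gtse1, and they were chosen as every probe set to which the platform's annotation gives 1 of these 9 symbols. This gave 9 of the 18194 genes named on the array and 22 of its 45101 probe sets, between 1 and 3 for each gene. At Tacc3 the organoids carried either wt/wt or fl/fl alleles, and they were collected at day 4 or day 6. All 4 groups had been treated for 24 hours with 4OHT (4-hydroxytamoxifen), which per the series' text was given so that Apc and Tacc3 would recombine. The wt/wt organoids, which serve as the control, therefore received the same drug. According to the descriptions, the organoids were normal at day 4 and Apc-deficient at day 6, but the design text states recombination before both days, so the Apc state of each array is not settled and no comparison below uses it. The Tacc3 exons that are floxed, the driver of the recombinase and the number of animals or organoid lines are also not given there. Each group had 1 Affymetrix array, so no value has a replicate error, and differences are described by their size.

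TACC proteins share a coiled-coil domain at their C terminus, through which they bind microtubule-associated proteins at centrosomes and spindles. In mitosis Aurora A phosphorylates TACC3, which then binds the clathrin heavy chain, and together they bring ch-TOG to the bundles of microtubules that attach to kinetochores. PI3K-C2alpha, a lipid kinase best known from clathrin-coated vesicles, has been reported as a scaffold of this complex, and GTSE1 binds clathrin on the spindle and restrains the microtubule depolymerase MCAK. Outside mitosis, clathrin forms the coat of endocytic vesicles from heavy chains, encoded by Cltc, and light chains, encoded by Clta and Cltb. In the intestine, dividing cells lie in the crypt, and organoids keep such crypt-like zones.

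The bases just upstream of Tacc3, Ckap5 and Gtse1 are shown because these 3 members act in mitosis and because mitotic genes often carry a CCAAT box and a cell cycle genes homology region (CHR) before their start. Each sequence holds the 150 bases before the earliest annotated start on the plus strand, from RefSeq on GRCm38.p6. Capitals mark CCAAT or its reverse complement ATTGG, and the CHR core TTTGAA or its reverse complement TTCAAA. The order is that of the names above.
Tacc3, chr5:33657978-33658127: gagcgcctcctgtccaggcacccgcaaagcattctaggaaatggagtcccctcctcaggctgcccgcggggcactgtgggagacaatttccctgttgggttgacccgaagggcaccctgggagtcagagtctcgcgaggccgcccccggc
Ckap5, chr2:91526597-91526746: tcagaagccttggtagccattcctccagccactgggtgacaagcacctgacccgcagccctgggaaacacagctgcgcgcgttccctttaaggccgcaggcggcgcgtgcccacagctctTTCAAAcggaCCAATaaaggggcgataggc
Gtse1, chr15:85859541-85859690: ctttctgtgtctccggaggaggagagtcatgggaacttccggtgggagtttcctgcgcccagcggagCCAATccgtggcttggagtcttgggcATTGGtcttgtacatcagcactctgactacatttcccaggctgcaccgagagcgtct
The Tacc3 sequence holds 0 matches to either motif. The Ckap5 sequence holds 1 CCAAT match and 1 CHR match, which do not overlap, and the Gtse1 sequence holds 2 CCAAT matches and 0 CHR matches. Among 32851 RefSeq mouse promoters, 24.5% have a CCAAT match and 9.07% a CHR match in the 150 bases before the start. The matches describe letters only. The Tacc3 sequence is also the whole gap between Tacc3 and its neighbour Tmem129, which is read from the other strand and starts 150 bases away, so both genes share these bases upstream.

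Of the 22 probe sets, 18 passed the level filter, a mean log2(intensity + 16) over the 4 arrays of at least the median of all probe sets (5.04, an intensity of 16.9), as did 22519 probe sets in all. The control probes of the arrays differed between the groups. The median intensity of the poly-A spike-ins, control RNAs that are added to the sample at the start of labelling, was 1942 (wt/wt) and 1183 (fl/fl) at day 4, and 921 and 548 at day 6. For Actb the ratio of 5' to 3' intensity, a sign of how full-length the labelled RNA was, was 0.0610 and 0.0627 at day 4 and 0.180 and 0.261 at day 6. For Gapdh this ratio was 0.208 and 0.142 at day 4 and 0.411 and 0.524 at day 6. The hybridization controls, another kind of control probe, had medians of 3627 and 2525 at day 4 and of 1258 and 1021 at day 6. The controls of either kind and both ratios thus moved with day. Either kind of control was also lower in fl/fl than in wt/wt at both days. The part of these measures in the differences below was not tested. Of the epithelial markers, 14 of 15 lay above the filter, with an intensity summed over the list of between 24425 in wt/wt at day 4 and 42558 in fl/fl at day 6, and the keratin Krt8 was the brightest. Of the mesenchymal markers, 6 of 15 lay above it, with sums of 464 and 456 at day 4 and 192 and 197 at day 6; Fn1 was the brightest on average. Of the immune markers 4 of 12 lay above it, with sums of 2128, 3036, 1671 and 1278 that were mostly Lyz2. Laptm5, Csf1r and Cd3e were the others above the filter, each highest in wt/wt at day 4. The defining Ptprc was below the filter and did not exceed 6.77 on any array. Of the endothelial markers 1 of 9 (Esam) and of the neural and glial markers 2 of 7 (S100b and Sox10) lay above it, with sums of 95.5 to 136 and 94.6 to 138. In whole organoids, fewer cells of a type and less RNA per cell cannot be told apart.

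Tacc3 was lower in fl/fl than in wt/wt organoids, both at day 4 and at day 6. On 1417450_a_at, the brightest of its probe sets, it read 184 (wt/wt) and 59.8 (fl/fl) at day 4 and 167 (wt/wt) and 49.7 (fl/fl) at day 6. Both fl/fl arrays thus lay far below both wt/wt arrays, at 32.5% of the wt/wt intensity at day 4 and 29.8% at day 6. On the scale log2(intensity + 16), on which all differences are given and which understates those of dim probe sets, fl/fl minus wt/wt was -1.40 at day 4 and -1.47 at day 6. Among the 22519 probe sets above the filter, this was the 7th lowest difference at day 4 and the 35th lowest at day 6. Only 7 of these probe sets were at least 2-fold lower at both days (0.0311%), and Tacc3 was the single member among them.

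The other probe sets of Tacc3 were dimmer and showed smaller differences in the same direction. Probe set 1455834_x_at, whose suffix marks probes that can also match other transcripts, had differences of -0.60 and -0.66. Its intensities were 32.1 and 15.7 at day 4 and 45.5 and 23.1 at day 6, in wt/wt and fl/fl. Probe set 1436872_at, which was designed from the same database sequence, had intensities of 15.7 and 12.6 at day 4 and of 22.6 and 19.7 at day 6, close to the filter, and differences of -0.15 and -0.11. The order of the arrays within each day was the same on all 3 probe sets. Besides the deposited scale, arrays were centred on their medians, quantile normalized, or scaled to the poly-A spike-ins (below, the poly-A scaling). The lower level on the dimmest probe set turned to a higher one in fl/fl with the poly-A scaling, whereas the differences of the other 2 kept their sign under every scaling tried. With the poly-A scaling the brightest Tacc3 probe set differed by -0.74 and -0.87 and so missed 2-fold, while the median of all probe sets was raised to 0.60 and 0.64. No source used here says whether any of these probes lies in the recombined part of the gene, so the signal left in fl/fl organoids cannot be assigned to intact or to recombined transcript.

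**Figure D1:**
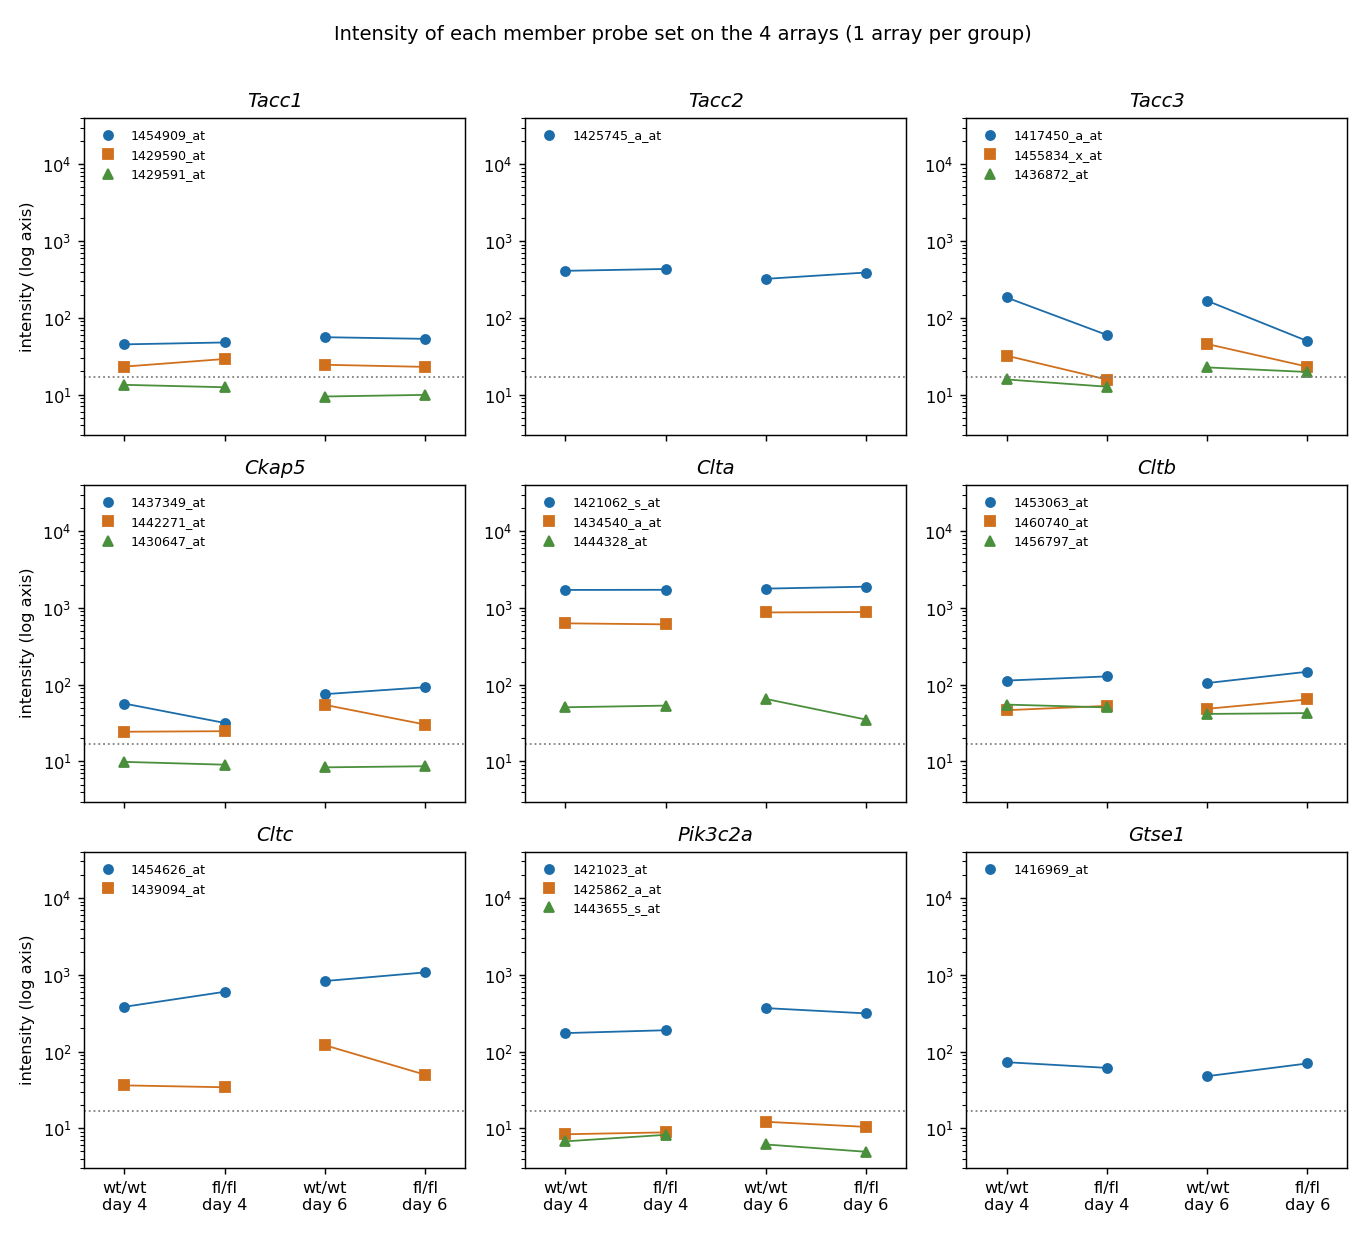
Intensity on a log axis of all 22 member probe sets, 1 panel per gene, with 1 point per array and no error because each group has 1 array; lines join the genotypes of a day and the dotted line marks the level filter (16.9). The brightest Tacc3 probe set separates the genotypes, at 184 and 167 in wt/wt against 59.8 and 49.7 in fl/fl.

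Between the days, the Tacc3 level differed little. In wt/wt organoids, day 6 minus day 4 was -0.13 on the brightest probe set and 0.36 and 0.28 on 1455834_x_at and 1436872_at. In fl/fl organoids the same differences were -0.21, 0.30 and 0.32. The brightest probe set and the others therefore disagreed in sign in both genotypes, and with the poly-A scaling the brightest was higher at day 6 too, by 0.82 and 0.69.

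On the deposited scale the genes beside Tacc3 did not share its genotype difference. On the chromosome Tacc3 is flanked by Fam53a, Slbp and Tmem129 on the left and by Fgfr3, Letm1, Nsd2 and Nelfa on the right, and 0 of these 7 reached 2-fold between genotypes at either day on their brightest probe sets, where 1.48% of all 11400 genes did at day 4 and 0.781% at day 6. Tmem129, the nearest, encodes an E3 ubiquitin ligase of the endoplasmic reticulum. It read 31.2 (wt/wt) and 47.0 (fl/fl) at day 4 and 101 and 110.0 at day 6, with genotype differences of 0.42 and 0.11. Slbp, which binds the stem-loop of histone mRNAs and is used in S phase, had intensities of 113 and 123 at day 4 and of 580.1 and 677 at day 6. Its genotype differences were 0.11, which turned negative with quantile normalization, and 0.22, and its day differences were 2.21 (wt/wt) and 2.32 (fl/fl). The second Slbp probe set above the filter, 1430058_at, had 103 and 99.3 at day 4 and 121 and 76.3 at day 6, so the higher level at day 6 was not shared by both probe sets. Tmem129 likewise had a second probe set, 1431015_at, with 55.6 and 38.3 at day 4 and 43.0 and 39.0 at day 6.

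On the other side, Fgfr3, a fibroblast growth factor receptor, differed by 0.33 at day 4 and -0.76 at day 6. Letm1, an ion exchanger of the inner mitochondrial membrane, differed by 0.40 and 0.57. Nsd2, a histone H3 lysine methyltransferase, differed by -0.11, turned positive by the poly-A scaling, and 0.21, and Nelfa, a subunit of the negative elongation factor, by 0.31 and 0.44. The other Nsd2 probe sets above the filter gave 0.22, 0.15 and 0.36 at day 4 and 0.57, -0.12 and -0.20 at day 6. The second Letm1 probe set above it gave 0.55 and -0.02. Fam53a differed by 0.07, turned negative by quantile normalization, and by -0.21, turned positive by the poly-A scaling. On the deposited scale all 7 neighbours were thus within 2-fold, and with the poly-A scaling Letm1 differed by 1.28 and Nelfa by 1.17 at day 6.

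**Figure D2:**
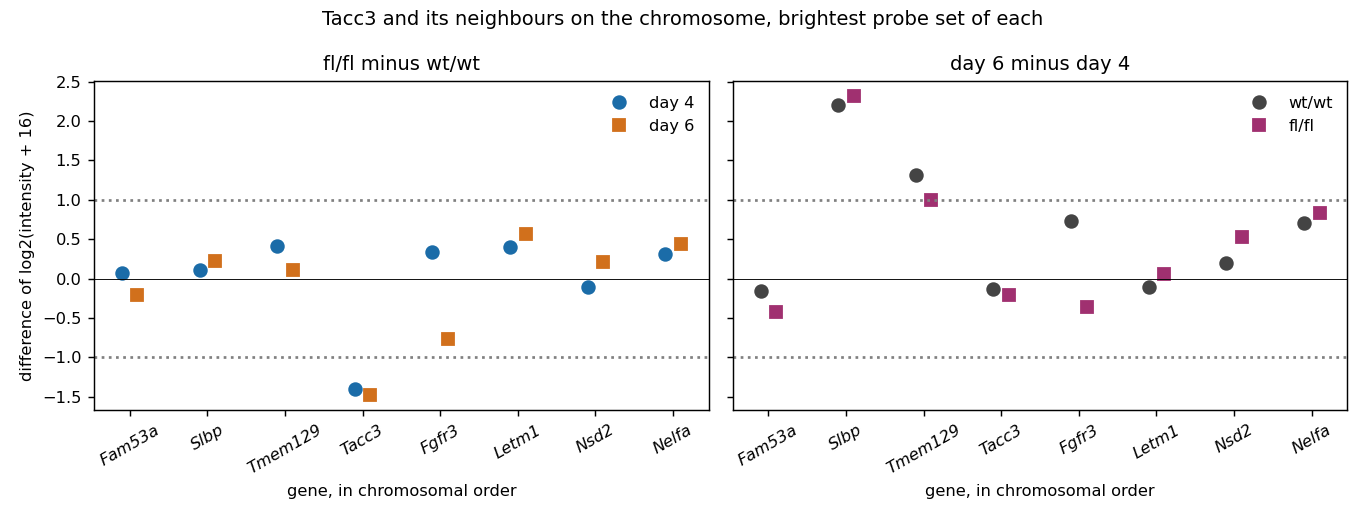
Genotype differences (left, fl/fl minus wt/wt at each day) and day differences (right, day 6 minus day 4 in each genotype) in log2(intensity + 16) of Tacc3 and its neighbours in chromosomal order, 1 value per gene from the brightest probe set; dotted lines mark 2-fold. Between genotypes Tacc3 lies at -1.40 and -1.47 and the neighbours lie between -0.76 and 0.57, while between days Slbp stands highest, at 2.21 and 2.32.

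The same kinds of genes lie beside the other TACC genes, in which a receptor of the Fgfr family neighbours each TACC gene. Beside Tacc1, Fgfr1 was below the filter, while Letm2 differed between genotypes by 0.04 and 0.04, Nsd3 by 0.39 and 0.06, and Plekha2 by 0.17 and 0.01, both turned negative by quantile normalization. Beside Tacc2, Fgfr2 differed by -0.26 and -0.77, Fam53b by -0.16 and -0.69, and Nsmce4a, a subunit of the SMC5/6 complex, by 0.25 and 0.65. The poly-A scaling turned the Fgfr2 difference at day 4 and both Fam53b differences positive. These values are those of the brightest probe sets. The other Nsd3 probe sets above the filter gave 0.54, 0.20, -0.11, -0.59 and -0.76 at day 4, and so disagreed in sign. The second probe sets above the filter of Nsmce4a (-0.27 and -0.28) and of Fam53b (0.23 and 0.13) had signs opposite to the brightest. Across the whole list of 14 neighbours, 13 were above the filter and 0 reached 2-fold between genotypes, against 1.48% and 0.781% of all genes. The median difference was 0.17 at day 4 and 0.06 at day 6, against 0.15 and 0.05 over all 11400 genes. Between the days, 4 of the 13 were at least 2-fold higher at day 6 in wt/wt (Fgfr2, Slbp, Tmem129 and Nsmce4a) and 2 in fl/fl (Slbp and Nsmce4a), on their brightest probe sets, where 18.3% and 12.2% of all genes were.

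The paralogs Tacc1 and Tacc2 differed much less between genotypes than Tacc3. Tacc1, the family member first found at a breast cancer amplicon, had intensities on probe set 1454909_at of 45.0 (wt/wt) and 47.7 (fl/fl) at day 4, and of 55.8 and 53.1 at day 6. The 4 values lay close together, with genotype differences of 0.06, turned negative by quantile normalization, and -0.06, turned positive by the poly-A scaling. Its second probe set above the filter, 1429590_at, had 23.1 and 29.0 at day 4 and 24.4 and 22.9 at day 6. The third, 1429591_at, designed from the same database sequence as the second, was below the filter at 9.42 to 13.4. Tacc2 had a single probe set, with intensities of 409 and 433 at day 4 and 322 and 389 at day 6. The fl/fl array was the higher of each pair, by 0.08 at day 4, which turned negative with quantile normalization, and by 0.26 at day 6. The day differences of Tacc2 were -0.33 (wt/wt) and -0.15 (fl/fl), both of which turned positive with the poly-A scaling. Neither paralog reached 2-fold in any comparison on the deposited scale.

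Ckap5, which encodes the polymerase that TACC3 brings to spindle microtubules, gave different pictures on its 2 probe sets above the filter. Probe set 1437349_at read 56.7 (wt/wt) and 31.7 (fl/fl) at day 4 and 75.2 (wt/wt) and 92.6 (fl/fl) at day 6. The fl/fl array was thus the lower at day 4, by -0.61, and the higher at day 6, by 0.25, directions that every scaling tried kept. Probe set 1442271_at had 24.4 and 24.8 at day 4 and 54.5 and 30.2 at day 6, with differences of 0.01 and -0.61. At neither day did both probe sets put the same genotype clearly higher. Between the days, 1437349_at was higher at day 6 by 1.19 in fl/fl and by 0.33 in wt/wt, where quantile normalization turned the sign, and 1442271_at was higher by 0.18 in fl/fl and 0.81 in wt/wt. The third probe set, 1430647_at, was below the filter at 8.37 to 9.86.

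The clathrin heavy chain gene Cltc was higher at day 6 than at day 4. Its bright probe set, 1454626_at, had intensities of 382 (wt/wt) and 601 (fl/fl) at day 4, and of 829 and 1075 at day 6. Like 9996 of the 22519 probe sets above the filter, it was higher at day 6 in both genotypes. Its arrays did not overlap between the days, with day differences of 1.08 (wt/wt) and 0.82 (fl/fl). The fl/fl array was also the higher of each pair, by 0.63 at day 4 and 0.37 at day 6, and all 4 directions held under every scaling tried. The dim probe set, 1439094_at, had 36.2 and 34.2 at day 4 and 121 and 49.9 at day 6. Here the wt/wt array at day 6 stood above the other 3, so that the day differences were 1.39 (wt/wt) and 0.39 (fl/fl) and the genotype difference at day 6 was -1.06, opposite to that of the bright probe set. That genotype difference kept its sign under every scaling tried, so the probe sets of this gene disagree at day 6.

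The light chain genes differed less. Clta had intensities on its brightest probe set, 1421062_s_at, of 1715 (wt/wt) and 1722 (fl/fl) at day 4 and of 1785 and 1892 at day 6. The 4 values lay close together, with genotype differences of 0.01, turned negative by quantile normalization, and 0.08. The set's suffix marks probes that can also match related transcripts. Probe set 1434540_a_at had 629.6 and 611 at day 4 and 873 and 884 at day 6, with day differences of 0.46 and 0.52 and genotype differences of -0.04 and 0.02, whose signs changed with the scaling. The day differences kept their sign under every scaling tried, though that in wt/wt was only 0.02 with quantile normalization. Probe set 1444328_at had 50.8 and 53.3 at day 4 and 65.1 and 35.0 at day 6. The fl/fl array at day 6 was the lowest, with a genotype difference of -0.67 there. The day differences of this probe set were 0.28 in wt/wt, turned negative by quantile normalization, and -0.44 in fl/fl, turned positive by the poly-A scaling.

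Cltb, the second light chain gene, was slightly higher in fl/fl organoids on its 2 probe sets that were designed from the same database sequence. Probe set 1453063_at had 113 and 128 at day 4 and 105 and 147 at day 6, with differences of 0.16, turned negative by quantile normalization, and 0.43. Probe set 1460740_at had 46.5 and 52.9 at day 4 and 48.5 and 64.1 at day 6, with differences of 0.14 and 0.31. The third, 1456797_at, had 55.0 and 50.6 at day 4 and 41.5 and 42.6 at day 6, and so did not show the same order at day 4. None of these differences reached 2-fold.

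Pik3c2a, which encodes the lipid kinase of the spindle and of coated vesicles, was higher at day 6. Its probe set above the filter, 1421023_at, had intensities of 174 (wt/wt) and 189 (fl/fl) at day 4 and of 368 and 314 at day 6. The arrays separated by day, with differences of 1.02 (wt/wt) and 0.68 (fl/fl) that kept their sign under every scaling tried. A higher level at day 6 in both genotypes was common, with 9996 of the 22519 probe sets above the filter. Between genotypes Pik3c2a differed by 0.11 at day 4, turned negative by quantile normalization, and by -0.22 at day 6, turned positive by the poly-A scaling. Its other 2 probe sets were below the filter, at 8.36 to 12.2 and at 4.94 to 8.22.

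Gtse1 encodes a protein of G2 and mitosis that binds clathrin and microtubules and that also restrains p53. Its single probe set had intensities of 72.6 (wt/wt) and 61.3 (fl/fl) at day 4 and of 47.7 and 69.9 at day 6. The wt/wt array was thus the higher at day 4 and the lower at day 6. The genotype difference was -0.20 at day 4, turned positive by the poly-A scaling, and 0.43 at day 6. The day difference was -0.48 in wt/wt, turned positive by the poly-A scaling, and 0.15 in fl/fl, turned negative by quantile normalization.

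Counted over the 18 member probe sets above the filter, 1 was at least 2-fold lower in fl/fl at day 4 (Tacc3) and 0 were higher. Over all probe sets above the filter, 1.32% were called 2-fold in either direction at day 4, 0.133% lower and 1.19% higher. At day 6, 2 of the 18 members were lower (Tacc3 and the dim Cltc probe set) and 0 higher, where 1.26% of all probe sets were lower, 0.178% higher and 1.43% called either way. The median member difference was 0.01 at day 4 and -0.02 at day 6, against 0.12 and 0.02 over all probe sets. Above 0 were 10 and 9 of the 18 members, where 63.5% and 53.2% of all probe sets were. The members as a list therefore lay near the middle of all probe sets, and the genotype calls came from Tacc3 and from 1 of 2 probe sets of Cltc. With the poly-A scaling these calls were replaced by 1 higher at day 4 and 4 higher at day 6, with 0 lower. Over all probe sets above the filter that scaling gave 3536 higher and 4 lower at day 4, and 3754 and 20 at day 6. The members thus moved with all probe sets.

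**Figure D3:**
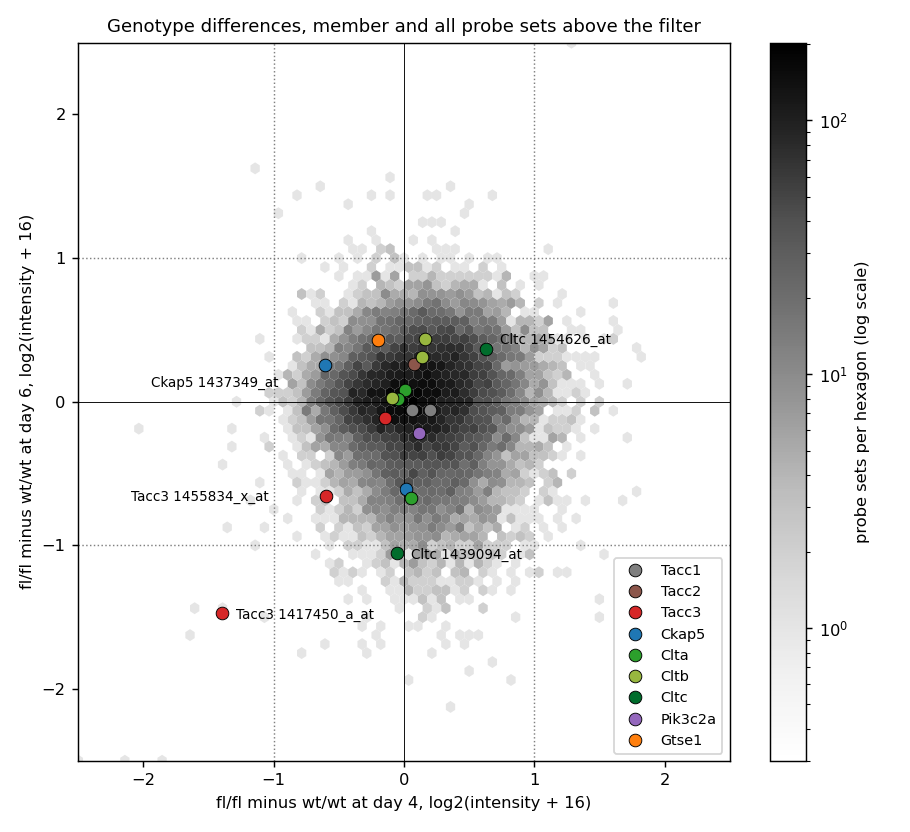
Genotype difference (fl/fl minus wt/wt, log2(intensity + 16)) at day 4 on the x axis and at day 6 on the y axis for all 22519 probe sets above the filter (grey density) and the 18 members (points); values beyond 2.5 are drawn at the edge. The brightest Tacc3 probe set lies at -1.40 and -1.47, apart from the other members.

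An additive model of genotype and day was fitted with limma across all probe sets above the filter. It leaves 1 residual degree of freedom and takes any unequal genotype difference between the days as error, so it is given as a description. By genotype, 3 of 22519 probe sets had a Benjamini-Hochberg adjusted p under 0.05 (0.0133%), and 1003 had an unadjusted p under 0.05. Of the 18 members, 0 had an adjusted p and 3 an unadjusted p under 0.05 by genotype in limma, both Tacc3 probe sets named first above and the bright Cltc probe set. The brightest Tacc3 probe set had a genotype coefficient of -1.44, with a limma p of 0.000563 and an adjusted p of 0.856. By day, 5734 of 22519 probe sets were called (25.5%), and 2 of the 18 members were. These were the bright Cltc probe set, with a coefficient of 0.95 and a limma adjusted p of 0.0178, and the bright Pik3c2a probe set, with 0.85 and 0.0374.

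Between the days, 3 of the 18 members were at least 2-fold higher at day 6 in wt/wt organoids (both Cltc probe sets and Pik3c2a) and 0 were lower. Of all probe sets, 18.4% were higher, 2.66% lower and 21.0% called either way. In fl/fl organoids 1 of 18 was higher (Ckap5 1437349_at) and 0 were lower, where 11.7% of all probe sets were higher, 2.30% lower and 14.0% called either way. Of the 18 members, 0 were 2-fold higher in both genotypes, as against 2012 of all probe sets (8.93%). The median member difference was 0.26 (wt/wt) and 0.18 (fl/fl), against 0.18 and 0.01 over all probe sets. In each genotype 13 of 18 members were above 0, where 58.2% (wt/wt) and 50.6% (fl/fl) of all probe sets were.

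**Figure D4:**
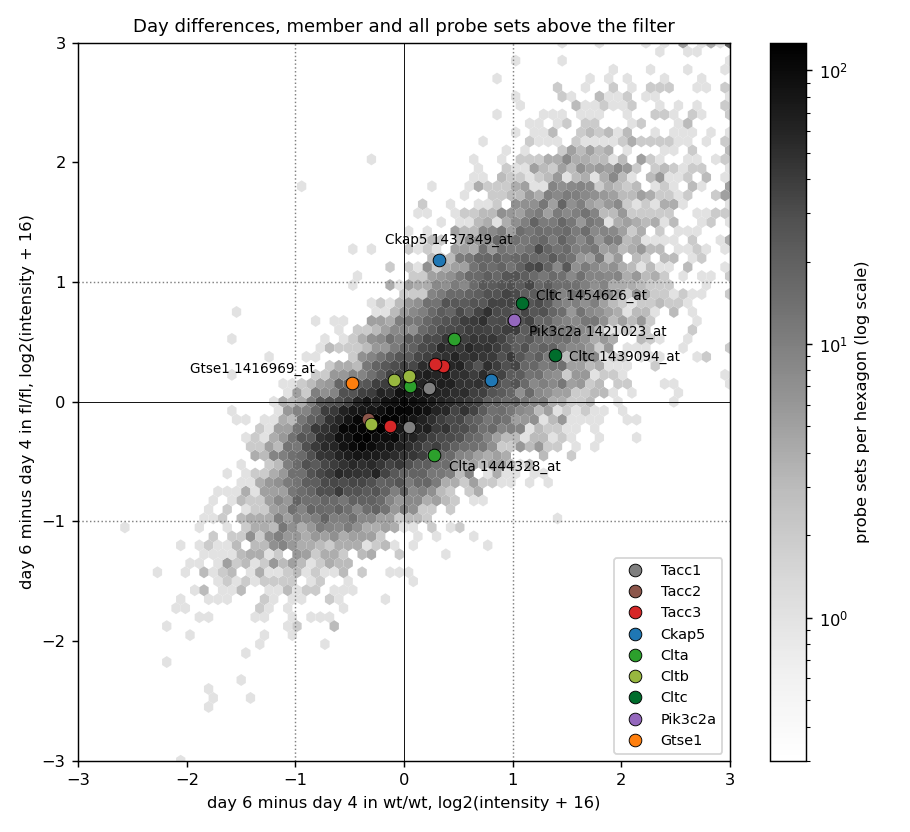
Day difference (day 6 minus day 4, log2(intensity + 16)) in wt/wt on the x axis and in fl/fl on the y axis for all probe sets above the filter (grey density) and the 18 members (points); values beyond 3 are drawn at the edge. Cltc 1454626_at lies at 1.08 and 0.82 and Pik3c2a 1421023_at at 1.02 and 0.68, within the spread of all probe sets.

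The choice of scale moved the members with all other probe sets. Relative to the deposited values, the median of all probe sets moved by -0.11 at day 4 and -0.24 between the days in wt/wt with quantile normalization. The poly-A scaling moved it by 0.48 and 0.61 between the genotypes at day 4 and day 6 and by 0.75 and 0.89 between the days in wt/wt and fl/fl. Over all probe sets above the filter, the genotype split at day 6 was 40 higher and 283 lower on the deposited scale and 3754 higher and 20 lower with the poly-A scaling, and at day 4 it was 268 and 30 against 216 and 85 with quantile normalization. Between the days in wt/wt the split was 4138 and 600 as deposited, 2622 and 1858 with quantile normalization and 10494 and 12 with the poly-A scaling. In fl/fl it was 2624 and 519, 1839 and 1019, and 10080 and 11, in the same order. The brightest Tacc3 probe set lay below the median of all probe sets in both genotype comparisons under every scaling tried. The scalings move the probe sets of an array largely together, so a probe set this far down could hardly have passed the median.

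**Figure D5:**
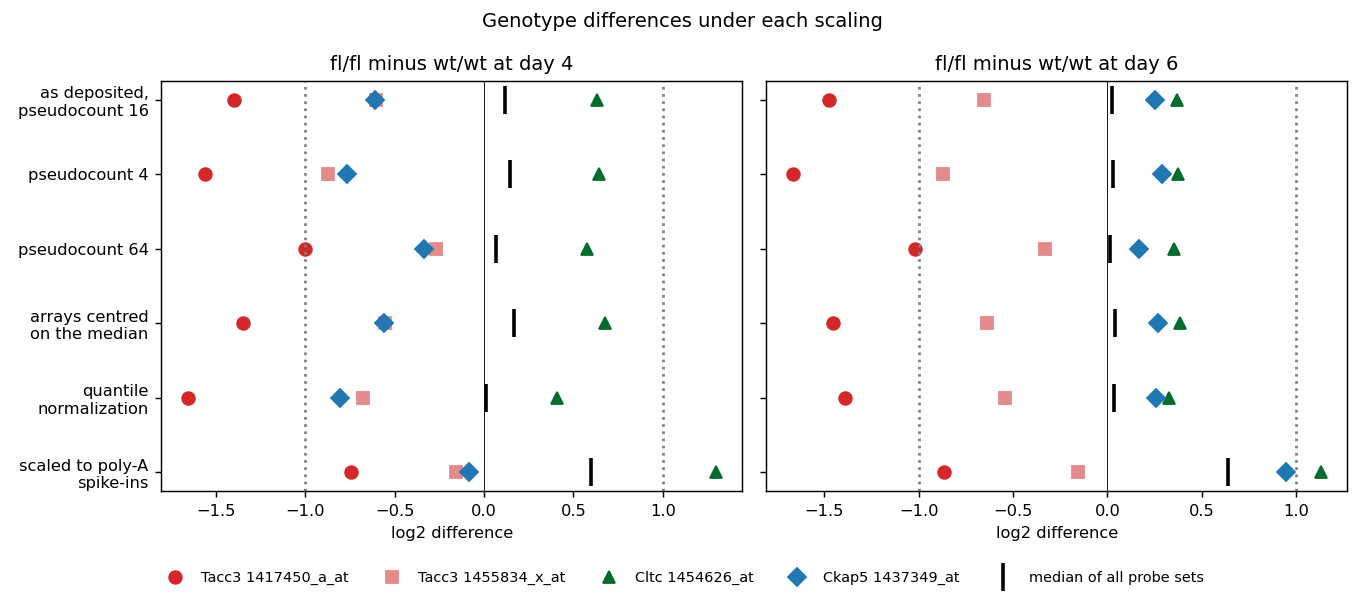
Genotype differences (log2 scale, day 4 left and day 6 right) of 4 member probe sets and the median of all probe sets (bars) under the deposited scale and each other pseudocount or scaling; dotted lines mark 2-fold. With the poly-A scaling all values move up, the median to 0.60 and 0.64, and the brightest Tacc3 probe set to -0.74 and -0.87.

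The genes whose 4-array pattern was most like that of the brightest Tacc3 probe set were found by the Euclidean distance between log2 profiles centred on their mean, over the 4 arrays and among 11399 other genes. They were Mid1, an E3 ubiquitin ligase that binds microtubules (distance 0.514), the mitochondrially encoded ND5 of respiratory complex I (0.745), Limch1, an actomyosin regulator (0.749), the acetyl-CoA synthetase Acss2 (0.762) and Trim2 (0.765). Mid1 had intensities of 106 (wt/wt) and 53.9 (fl/fl) at day 4 and of 115 and 22.6 at day 6, with genotype differences of -0.80 and -1.76. Both fl/fl arrays of Mid1 lay below both wt/wt arrays, an order that choosing by distance to Tacc3 favours. The other 4 differed by -0.37 to -0.57 at day 4 and by -0.84 to -1.22 at day 6. None of the other members came near: Tacc1 was the closest, at rank 3240 of 11399 with a distance of 1.48, and Cltc the farthest, at rank 10307 with 2.24. Ckap5, the direct partner, was at rank 5377 and Gtse1 at rank 4854. With 4 arrays such a ranking describes these arrays only.

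Spindle and centrosome genes were taken from a list of 57 genes, of which 56 lay above the filter. Between genotypes at day 4, 2 of the 56 were at least 2-fold higher in fl/fl and 0 lower, where 1.38% of all 11400 genes were higher and 0.105% lower. They were Tubgcp3, a subunit of the gamma-tubulin ring complex (1.16 at day 4 and -0.40 at day 6), and Spag5, the spindle protein astrin (1.04 and -0.36). The poly-A scaling turned both day 6 differences positive. At day 6, 0 of 56 were called in either direction, where 0.781% of all genes were (1.48% at day 4). The median difference of the list was 0.32 at day 4 and 0.10 at day 6, against 0.15 and 0.05 over all genes. Above 0 were 48 and 33 of the 56 genes, each by its brightest probe set. The share above 0 was taken over all probe sets only, not over genes, and was 63.5% and 53.2%. Nek2, a centrosomal kinase, had differences of 0.60 and 0.97, with intensities of 20.4 and 39.2 at day 4 and of 57.5 and 128 at day 6. The augmin subunits, Haus1 (0.71 and 0.26) and Haus4 (0.75 and 0.23), and Rcc1, the exchange factor of Ran (0.79 and 0.31), were the others with the largest mean genotype difference. Aurka, the kinase that phosphorylates TACC3, differed by 0.13 and 0.33.

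Between the days, 22 of the 56 spindle genes were 2-fold higher at day 6 and 2 lower (Haus2 and Ckap2l) in wt/wt, against 18.3% and 2.96% of all genes (21.2% either way). In fl/fl 9 were higher and 0 lower, against 12.2% and 2.89% (15.1% either way), and 8 were higher in both. Over all probe sets above the filter, a share not taken over genes, 8.93% were higher in both. The largest mean day differences were those of Cep192, a scaffold of the centrosome (2.01 in wt/wt and 1.27 in fl/fl), Plk4, the kinase of centriole duplication (1.81 and 1.45), Aurkb, the kinase of the chromosomal passenger complex (1.32 and 1.73), and Tubgcp3 (2.26 and 0.70). As a median the list lay at 0.82 (wt/wt) and 0.49 (fl/fl), against 0.17 and 0.00 over all genes.

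The wider program of G2 and M phase held 39 genes above the filter. Between genotypes 0 of 39 were called at either day, where 1.48% and 0.781% of all genes were, with medians of 0.14 and 0.22 against 0.15 and 0.05 over all genes. At day 6, 16 of 39 were 2-fold higher and 0 lower in wt/wt, likewise 16 and 0 in fl/fl, and 13 were higher in both. Of all genes 18.3% were higher and 2.96% lower in wt/wt and 12.2% and 2.89% in fl/fl. Over all probe sets, not genes, 8.93% were higher in both. The list's medians were 0.75 and 0.85, against 0.17 and 0.00 over all genes. Top2a, the topoisomerase that decatenates replicated chromosomes, had intensities of 207 and 214 at day 4 and of 765 and 1018 at day 6. Cdk1, the mitotic kinase, had day differences of 1.40 and 1.78, and Ube2c, the ubiquitin-conjugating enzyme of the anaphase-promoting complex, of 1.32 and 2.18. Bub1, a kinase of the spindle checkpoint, had 1.94 and 1.29. The genes with the largest mean genotype differences were Ccna2 (0.27 and 0.57), Cenpf (0.59 and 0.37), Anln (0.26 and 0.59) and Melk (0.53 and 0.52). Tacc3 and Gtse1, which are used in the same phase, had day differences of -0.13 and -0.48 in wt/wt and -0.21 and 0.15 in fl/fl on their brightest probe sets. On the deposited scale 10 of the 39 listed genes in wt/wt and 8 in fl/fl were also below 0.

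The list of the clathrin coat and endocytic adaptors held 51 genes, of which 48 had a probe set with their symbol alone and 42 lay above the filter. Between genotypes 1 of 42 was 2-fold higher at day 4 (Synj1, the phosphatase that uncoats vesicles, 1.11 and, at day 6, -0.27, turned positive by the poly-A scaling) and 0 were lower, and 0 were called at day 6. Of all genes 1.38% were higher and 0.105% lower at day 4, and 0.781% were called at day 6. The medians were 0.12 and 0.08, against 0.15 and 0.05 over all genes. Fcho2, which starts coated pits, differed by -0.08 at day 4, turned positive by the poly-A scaling, and by -0.97 at day 6, just short of 2-fold. Ap2s1, a subunit of the adaptor AP-2, differed by 0.24 and 0.67, and Gak, the uncoating kinase also needed in mitosis, by 0.78 and 0.09. Between the days, 7 were higher and 1 lower in wt/wt and 5 higher and 2 lower in fl/fl; 5 were higher in both (Eps15, Fcho2, Necap1, Clint1 and Tfrc), and Itsn2 was lower in both. The counts in each genotype lie near the shares of all genes, which were 18.3% higher and 2.96% lower in wt/wt and 12.2% and 2.89% in fl/fl. Over all probe sets, not genes, 8.93% were higher in both and 1.08% lower in both. The transferrin receptor Tfrc, the classical cargo of coated pits, had day differences of 1.76 and 1.61, Clint1, an adaptor of the trans-Golgi network, 1.76 and 1.94, and Necap1 1.43 and 1.48. The list's median day difference was -0.05 (wt/wt) and -0.16 (fl/fl), against 0.17 and 0.00 over all genes, and Cltc was at 1.08 and 0.82.

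Of the kinases and phosphatases that set phosphoinositides on endosomes, 19 of 24 lay above the filter, and 0 were called between genotypes at either day (all genes 1.48% and 0.781%), with medians of 0.33 and -0.08. Mtmr4 differed by 0.65 and 0.21, Ocrl, the phosphatase mutated in Lowe syndrome, by -0.63 and -0.34, the second of which turned positive with the poly-A scaling, Pip4k2c by 0.43 and 0.29, and Fig4 by 0.22 and 0.51. Between the days 4 were higher in wt/wt, namely Pik3c3 (1.16), which encodes the class III kinase Vps34, the myotubularins Mtm1 (1.15) and Mtmr2 (1.39), and Inpp5b, and 0 in fl/fl, where 18.3% and 12.2% of all genes were; 0 were lower. Pik3c2a itself differed by 1.02 in wt/wt and 0.68 in fl/fl, and the difference of these counts between the genotypes was not tested.

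Of the reported binding partners of TACC proteins, 10 of 11 lay above the filter. Between genotypes 0 were called at either day (all genes 1.48% and 0.781%), with medians of 0.20 and -0.15. Between the days Tdrd7, an RNA granule protein, had 1.79 in wt/wt and 1.28 in fl/fl, Mbd2, a reader of methylated DNA, 0.73 and 1.10, the acetyltransferase gene Kat2a -0.43, turned positive by the poly-A scaling, and -1.07, and Zfpm1, a cofactor of GATA factors, -0.58 and -0.89, both turned positive by it. The partners with the largest mean genotype differences were Tdrd7 (0.64 and 0.13), Yeats4 (0.53 and 0.09), Snrpg (0.15 and 0.36) and Mbd2 (0.04, turned negative by quantile normalization, and 0.41).

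Of the genes of the p53 and p21 axis, on which GTSE1 acts, 8 of 10 had a probe set with their symbol alone, and all 8 lay above the filter. The member Gtse1 differed between genotypes by -0.20 and 0.43. Cdkn1a, the gene of the CDK inhibitor p21, had intensities of 545 (wt/wt) and 855 (fl/fl) at day 4 and of 352 and 611 at day 6. The fl/fl array was the higher of each pair, by 0.63 and 0.77 and under every scaling tried. Zmat3 (0.99 and 0.87), Phlda3 (0.77 and 0.75) and Ccng1 (0.67 and 0.35), which are targets of p53, had positive differences at both days and missed 2-fold. Mdm2, also a target and the ubiquitin ligase that degrades p53, differed by -0.23 at day 4, turned positive by the poly-A scaling, and by 0.29 at day 6. Of the 8 genes, 1 was called higher at day 4 (Mdm4, an inhibitor of p53, at 1.10 and, at day 6, -0.68, turned positive by the poly-A scaling) and 0 at day 6, where 1.38% and 0.211% of all genes were higher. Between the days, Mdm2 was lower by -1.70 in wt/wt and -1.18 in fl/fl, and Mdm4 was higher by 2.32 and 0.53. In wt/wt 2 genes were called higher (Mdm4 and Trp53bp1) and 1 lower (Mdm2), and in fl/fl 0 higher and 1 lower (Mdm2), against 18.3% and 2.96% of all genes in wt/wt and 12.2% and 2.89% in fl/fl. The list's medians were 0.65 and 0.32 between genotypes and 0.30 and -0.08 between the days.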

How the data were processed

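Total RNA of 4 organoid cultures, 1 for each combination of Tacc3 genotype and day, was hybridised to 4 mouse expression arrays, after labelling of 100 ng of RNA by 3' in vitro transcription per the labels' protocols. The authors deposited a linear intensity per probe set and array (45101 rows), judged from the values. Which software summarised the probes, and with which background correction and normalization, is not given in the sources used here. Differences were taken on log2(intensity + 16) of the deposited intensities with no further normalization, between genotypes within a day (fl/fl minus wt/wt) and between days within a genotype (day 6 minus day 4). Precision is limited by the number of arrays, as 1 array in each group leaves a difference without replicate check or p-value, and whether the samples are separate cultures of several animals is not stated. Called means at least 2-fold, among probe sets whose mean reached the median of all non-control probe sets.

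The platform annotation names 1 gene symbol on 34958 probe sets, several on 932, and leaves out 9211. The Entrez ID matched 34754 of the first to a RefSeq table of GRCm38.p6. A gene in a list was represented by its brightest probe set, and 11400 of 18194 genes passed the filter. An additive fit of genotype and day used limma 3.58.1 in R 4.3.3 (lmFit, eBayes with a trend) with Benjamini-Hochberg adjustment over 22519 probe sets; scripts ran in Python 3.11.15, and the fit was tested on simulated data. Promoters came from a table of RefSeq windows, which matched 8 of the 9 members.

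Named were all probe sets of the members, every neighbour, the 5 genes most like Tacc3, and in each list up to 4 genes by mean genotype and up to 4 by mean day difference; Aurka, Spag5, Haus2, Ckap2l, Trp53bp1, Eps15, Itsn2, Pik3c3, Mtm1, Mtmr2 and Inpp5b were added after their values were seen where they are not among those. The members and the 12 gene lists were chosen with earlier results of these data known. Alternatives were another pseudocount, centred arrays, quantile normalization, scaling to the poly-A spike-ins, no or a stricter level filter, no x_at or s_at probe sets, and a gene's value as the mean over its probe sets.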

Additional observations from a re-analysis of the deposited data

Results flagged for a closer look

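On Ckap5 probe set 1437349_at the genotype difference had opposite signs at the days. It was -0.61 at day 4 and 0.25 at day 6, from intensities of 56.7 (wt/wt) and 31.7 (fl/fl) at day 4 and then 75.2 and 92.6 at day 6. The day 6 difference exceeded the day 4 difference by 0.86 on the log2 scale. The gene's other probe set above the filter, 1442271_at, gave 0.01 and -0.61, the opposite order. With 1 array per group the difference between the days was not tested.

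On Clta probe set 1444328_at the day difference had opposite signs in the genotypes. It was 0.28 (wt/wt) and -0.44 (fl/fl), from intensities of 50.8 and 65.1 in wt/wt and of 53.3 and 35.0 in fl/fl at day 4 and day 6, so that the fl/fl difference was lower by -0.72 on the log2 scale. The brighter Clta probe sets gave 0.06 and 0.13 (1421062_s_at, both turned negative by quantile normalization) and 0.46 and 0.52 (1434540_a_at). This difference was not tested either.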

How the results depend on the processing

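No paired analysis was possible because each group had 1 array and the labels give no replicate numbers that groups share, and no array could be left out in turn for the same reason. The lower Tacc3 level in fl/fl kept its direction under each alternative listed in the processing summary; it missed 2-fold with the poly-A scaling (-0.74 at day 4, -0.87 at day 6) and with the mean over the gene's probe sets (-0.72 and -0.75). The other counts and values below are numbers called at least 2-fold in either direction, and the cause of each shift was not tested beyond what the setting itself does.

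With the poly-A scaling the calls were 3540 at day 4, 3774 at day 6, 10506 between days in wt/wt and 10091 in fl/fl over all probe sets; 4 members at day 6, 9 between days in wt/wt and 11 in fl/fl; 15, 11, 47 and 42 spindle genes and 9, 4, 17 and 14 clathrin coat genes, in the same order of comparisons. With a pseudocount of 4 they were 764 and 560 over all probe sets at day 4 and day 6, 4 and 1 spindle genes, and 1 clathrin coat gene at day 6. With a pseudocount of 64 they were 46, 84, 2155 and 1487 over all probe sets, 1 member at day 6 and 0 between days in either genotype, 0 spindle genes at day 4 and 7 and 2 between days, and 0 clathrin coat genes at day 4 and 5 and 2 between days. Quantile normalization gave 1 member at day 6, 1 between days in wt/wt and 1 spindle gene at day 4. Without x_at and s_at probe sets there were 1 spindle gene and 2 clathrin coat genes at day 4. When a gene's probe sets were averaged there were 1, 13 and 3 spindle genes at day 4 and between days in wt/wt and fl/fl, and 0, 4 and 2 clathrin coat genes. The additive limma fit called 9 probe sets by genotype with quantile normalization and 0 without a level filter, against 3, with 1003 at an unadjusted p under 0.05 on the deposited scale.

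Of the 154 alternative values for these summaries, 104 stayed on the same side of 2-fold or were a total count within 1.5 times. A total does not show direction: with the poly-A scaling the members' calls went from 0 higher and 1 lower to 1 and 0 at day 4, and from 0 and 2 to 4 and 0 at day 6. The calls over all probe sets went from 268 higher and 30 lower to 3536 and 4 at day 4. At day 6 they went from 40 and 283 to 3754 and 20. Of the values for the single member probe sets, those below the filter included, 407 stayed on their side of 2-fold, 22 passed it and 11 lost it. Differences under 2-fold also changed sign with some scalings. The text names many of these changes but not all, so an unmarked sign need not be stable. Centring the arrays on their median moved none of the summaries past 2-fold or 1.5 times. The counts over all probe sets still changed, from 298 to 361 at day 4 and from 323 to 314 at day 6. Between the days in wt/wt the count went from 4738 to 5124. The deposited values give no background level, so how far dim probe sets such as Tacc3 1436872_at lie above it is not known here.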

Other observations

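In the additive fit 3 probe sets had a limma adjusted p under 0.05 by genotype. For none of them does the platform annotation give a single gene symbol. Probe set 1427820_at had intensities of 682 (wt/wt) and 37.9 (fl/fl) at day 4 and of 654 and 17.3 at day 6, with differences of -3.70 and -4.33. Probe set 1455869_at had differences of -1.67 and -1.61, and 1431213_a_at of -1.57 and -1.46. All 3 were lower in fl/fl at both days, as Tacc3 was.

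At day 6, probe sets without a gene in the platform table were lower in fl/fl more often than the others. Of 2730 such probe sets above the filter, 115 were at least 2-fold lower (4.21%), with a median of -0.15. Of the 11397 brightest probe sets of genes, 65 were (0.570%), and of the 7848 other probe sets of these genes 98 were (1.25%). At day 4 the shares were 0.256%, 0.105% and 0.140%. Among the members, the 9 brightest probe sets had a median genotype difference at day 6 of 0.25, with 6 above 0, and the 9 others a median of -0.11, with 3 above 0. This split was looked at after the values were seen and was not tested. Among the dimmer probe sets, Ckap5 1442271_at, Clta 1444328_at and Cltc 1439094_at had the lowest genotype differences at day 6 beside Tacc3 1455834_x_at, at -0.61, -0.67 and -1.06.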
